A study of Mus musculus with 6 samples.

Results

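The genes described here are 36 components and targets of DNA replication and of the G1/S transition of the cell cycle, chosen by gene symbol from the authors' deposited table of raw counts: all 36 were in the table, among 12579 genes in all. They were measured by RNA sequencing in 6 libraries of fetal liver cells from mouse embryos at stage E14.5. There were 3 Prl2+/+ and 3 Prl2-/- libraries, and the labels give no other allele or treatment for either genotype. PRL2 is a small protein tyrosine phosphatase encoded by the gene Ptp4a2, and the study asked how its loss alters transcription in blood progenitors that depend on the receptor FLT3. The labels describe the cells as haematopoietic stem and progenitor cells and the material as fetal liver cells; they give no sort or gate and do not say whether libraries stem from different embryos. The p-values below therefore describe the spread among these libraries, which may be partly technical.

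A cell copies its genome once per division. In G1 the origin recognition complex, with CDC6 and CDT1, loads the ring-shaped MCM2-7 helicase onto origins, a step called licensing; at the start of S phase CDC45, GINS and MCM10 turn the loaded rings into active helicases, and the polymerases, the sliding clamp PCNA and its RFC loaders follow. Cyclin E with its kinase inactivates the RB family, which frees E2F factors to transcribe most of these genes together, so that their mRNAs rise in late G1 and S phase. The fetal liver at this stage is an organ of fast-dividing blood precursors.

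The promoters of the set were searched for the E2F-type word TTCCCGC and its variants, the word TTCGCGC, the word TTGCCGC and the word TTGGCGC, on both strands, since this element is what the group is best known for sharing. Promoter sequences from RefSeq (GRCm38.p6; 250 bases before to 50 after the start of transcription) were at hand for 30 of the 36 genes, with the start farthest upstream used for each gene; the other 6 are Mcm4, Gins1, Gins2, Rfc2, Pole and Ccne2. At least 1 word was found in 17 of the 30 (56.7%), against 17.2% of 9620 other genes of the count table and 9.72% of all 27025 genes with a promoter sequence. The set was drawn up in part from E2F target genes, so this contrast follows in part from that choice. The median GC content was 60.7% in the set and in the other genes of the table, and among the other genes within the middle of the set's GC range the share was 17.1%. The word CCAAT was in 18 of the 30 (60.0%) and in 38.9% of the other genes of the table, and the word TTTGAA, part of the element of late cell cycle genes, in 3 of the 30 and 11.9% of the others. CCAAT and the E2F word GCGCCAA can share bases, and E2F words can overlap each other. A match is a description of letters and does not show that a factor binds there.

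These promoters are shown 5′ to 3′ on the strand of the gene, with the E2F words, or their reverse complements, in capitals. The first 4 belong to the gene with the smallest p and a RefSeq promoter in each of the first 4 roles below, and Mcm6 was added after the matches were counted because it held the most, 5 words in 3 separate runs.
Cdt1 (chr8:122567765-122568064, plus strand): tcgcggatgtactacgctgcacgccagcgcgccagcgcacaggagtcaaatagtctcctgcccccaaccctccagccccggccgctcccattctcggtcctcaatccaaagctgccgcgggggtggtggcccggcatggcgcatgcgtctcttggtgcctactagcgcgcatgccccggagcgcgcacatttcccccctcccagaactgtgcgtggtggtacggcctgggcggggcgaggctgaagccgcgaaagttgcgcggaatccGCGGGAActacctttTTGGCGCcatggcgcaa
Mcm10 (chr2:5012742-5013041, minus strand): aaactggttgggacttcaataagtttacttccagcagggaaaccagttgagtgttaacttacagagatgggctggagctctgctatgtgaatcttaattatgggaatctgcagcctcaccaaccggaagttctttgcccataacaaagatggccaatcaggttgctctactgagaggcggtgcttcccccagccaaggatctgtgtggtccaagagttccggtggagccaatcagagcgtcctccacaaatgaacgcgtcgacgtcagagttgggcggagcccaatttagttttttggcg
Pola1 (chrX:93632106-93632405, minus strand): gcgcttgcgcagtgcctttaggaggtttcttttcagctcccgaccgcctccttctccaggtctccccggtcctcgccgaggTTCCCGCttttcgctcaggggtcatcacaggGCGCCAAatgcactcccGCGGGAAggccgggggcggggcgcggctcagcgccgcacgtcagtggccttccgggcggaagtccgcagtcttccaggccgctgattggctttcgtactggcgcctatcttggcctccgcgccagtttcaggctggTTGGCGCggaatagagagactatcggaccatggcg
Rrm2 (chr12:24708004-24708303, plus strand): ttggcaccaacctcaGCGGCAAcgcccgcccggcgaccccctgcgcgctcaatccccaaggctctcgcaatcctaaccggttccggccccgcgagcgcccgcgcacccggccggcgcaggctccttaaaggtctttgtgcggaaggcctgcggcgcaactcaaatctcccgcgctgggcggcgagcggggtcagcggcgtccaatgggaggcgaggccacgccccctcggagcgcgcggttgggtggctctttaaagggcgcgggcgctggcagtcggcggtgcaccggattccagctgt
Mcm6 (chr1:128359656-128359955, minus strand): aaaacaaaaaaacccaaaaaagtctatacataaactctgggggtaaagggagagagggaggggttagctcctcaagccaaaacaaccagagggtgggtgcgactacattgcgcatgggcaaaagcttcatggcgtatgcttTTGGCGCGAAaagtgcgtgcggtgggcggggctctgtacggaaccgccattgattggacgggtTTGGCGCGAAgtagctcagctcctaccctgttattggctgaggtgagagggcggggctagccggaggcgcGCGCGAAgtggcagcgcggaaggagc
In Cdt1, the licensing factor, both words lay after the start of transcription, beginning 18 and 33 bases downstream of it. In Pola1, the catalytic subunit of polymerase alpha, 3 words began 169, 138 and 121 bases upstream and 1 began 15 bases downstream. Rrm2, the small subunit of ribonucleotide reductase, had 1 word, beginning 235 bases upstream, and Mcm10 had none in this window. In Mcm6, a helicase subunit, the words TTGGCGC and GCGCGAA overlapped at 2 places, beginning 109 and 46 bases upstream of the RefSeq start. A further GCGCGAA began 24 bases downstream of that start. The exons counted for Mcm6 begin further downstream, at chr1:128359656, the last base of the sequence shown. Relative to that position all these words lie upstream. The other promoters with 3 words were those of Mcm3, Mcm5 and Mcm7, each in 2 separate runs because words overlapped. By words, 4 of the 5 MCM2-7 subunit genes with a promoter sequence held at least 3, and Mcm2 held none. By separate runs, only Mcm6 among them held 3.

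Libraries held 25965111 to 37026282 counts, and the 36 genes took 0.991% to 1.08% of them. Ptp4a2, the targeted gene, had 298 to 314 CPM (counts scaled to an equal library total) in Prl2+/+ and 1.03 to 1.28 CPM in Prl2-/-, which matches the labels in all 6 libraries. All 16 listed stem and progenitor markers were measured, with a summed level of 1162 to 1303 CPM in Prl2+/+ and 1273 to 1447 CPM in Prl2-/-. Granulocyte-monocyte progenitor markers (all 12) had the largest sum of the marker lists, 13423 to 17162 CPM in Prl2+/+ and 15661 to 18624 CPM in Prl2-/-. Markers of other cells were present too and varied within genotypes. Hepatoblast markers (17 of 18 measured) summed to 184 to 5159 CPM in Prl2+/+ and 78.9 to 2906 CPM in Prl2-/-, erythroid markers (15 of 17) to 923 to 1684 CPM in Prl2+/+ and 924 to 2146 CPM in Prl2-/- and B cell markers (all 11) to 113 to 344 CPM in Prl2+/+ and 74.9 to 430.0 CPM in Prl2-/-; of these lists only Serpina1a, a hepatoblast gene, was at 0 counts in any library.

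Loss of PRL2 was not accompanied by a detectable difference in any gene of the replication set. With edgeR's quasi-likelihood test and Benjamini-Hochberg adjustment over 12576 genes, 0 of 36 passed the threshold of 0.05, against 0.0398% of all genes tested (5 genes), and the smallest adjusted p among the 36 was 0.899. DESeq2, limma-voom and the edgeR likelihood ratio test also called 0 of the 36. At an unadjusted p under 0.05 there was 1 gene, Pola1, or 2.78% of the set against 4.6% of all genes. All 3 Prl2-/- libraries lay above all 3 Prl2+/+ libraries for 1 gene, Rfc5, and below them for 2, Pola1 and Rrm1, while 6.03% and 5.07% of all genes did so. Log2 fold changes, Prl2-/- minus Prl2+/+, were above 0 for 21 genes and below 0 for 15, against 49.8% above 0 among all genes, and their median was 0.015, beside -0.00067 for all genes tested.

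The data were precise enough to bound these differences. For all 36 genes the 95% confidence interval of the fold change lay within 1.5-fold in either direction, which held for 66.6% of all genes and for 93.9% of the 6490 genes with a mean level in the range of the set. The estimates themselves ran from 0.906-fold (Pola1) to 1.08-fold (Pold1), and the outermost bounds were 0.816 for Ccne2 and 1.32 for Pold1. The standard error (SE) of the log2 fold change had a median of 0.069 in the set and 0.12 over all genes. The spread between libraries of one genotype, as the pooled SD of log2 CPM, had a median of 0.082 in the set and 0.100 among the genes of the same range of levels; 26 of the 36 lay below the latter. Smaller differences are not shown to be absent. CPM values are relative to the library total, and in bulk RNA fewer dividing cells and less mRNA per cell cannot be told apart.

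**Figure D1:**
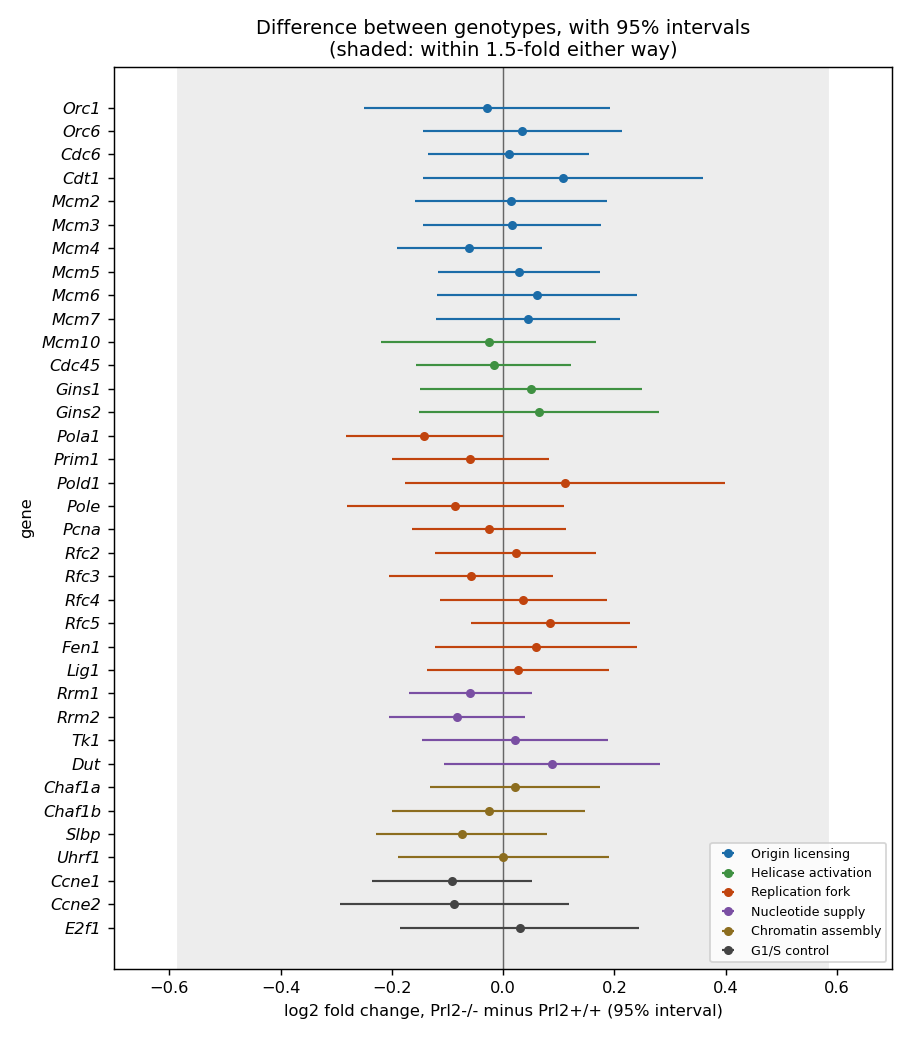
Log2 fold change of each gene (points, Prl2-/- minus Prl2+/+, 3 libraries each) with its 95% confidence interval (lines) from the edgeR fit, coloured by role; the shaded band marks 1.5-fold either way. All 36 intervals lie inside the band, and that of Pola1 is the 1 interval that leaves out 0.

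The licensing genes comprised 10 of the set: Orc1 and Orc6 of the origin recognition complex, the loaders Cdc6 and Cdt1, and Mcm2 to Mcm7. None passed the test, 8 estimates were above 0 and 2 below, and the median log2 fold change was 0.022. Mcm4, the helicase subunit with the smallest p of the group, stood at 426, 448 and 472 CPM in the Prl2+/+ libraries, in replicate order, and 431, 432 and 427 CPM in the Prl2-/- libraries. The Prl2-/- libraries were close together and within the Prl2+/+ range. Its log2 fold change was -0.060 ± 0.054 (SE; 95% interval -0.19 to 0.070; adjusted p from edgeR = 0.899). Cdt1, which delivers the helicase to origins and is destroyed in S phase to prevent a repeat, had 119, 135 and 136 CPM in Prl2+/+ and 161, 128 and 131 CPM in Prl2-/-. Prl2-/- replicate 1 was the highest library and Prl2+/+ replicate 1 the lowest, and the other 4 lay between 128 and 136 CPM. Its log2 fold change was 0.11 ± 0.11 (95% interval -0.14 to 0.36; adjusted p from edgeR = 0.899), and its pooled SD of 0.148 log2 units was the next to largest of the set. Cdc6, the ATPase that works with the origin complex, had the smallest estimate of the group, 0.010 ± 0.061, with 150.1 to 166 CPM over the 6 libraries. Orc1, the ATPase subunit that cycles with the cell cycle, was the least abundant at 35.3 to 42.5 CPM and a log2 fold change of -0.029 ± 0.093, and Orc6 was at 0.034 ± 0.075.

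The 6 subunits of the helicase are needed in equal numbers in the ring, but their mRNAs were not equally abundant. Per kilobase of exon (RPKM, CPM per kilobase), the order was Mcm6, Mcm3, Mcm5, Mcm7, Mcm2 and Mcm4 from high to low in each of the 6 libraries. Mcm6 ran from 284 to 334 RPKM, Mcm3 from 243 to 279.7, Mcm5 from 236 to 266, Mcm7 from 224 to 262, Mcm2 from 169 to 197 and Mcm4 from 119 to 131 RPKM. Mcm5 exceeded Mcm7 by a ratio of only 1.01 to 1.05 within a library, so that this pair is close to equal, while Mcm6 exceeded Mcm4 2.33 to 2.78 times. That ratio was 2.33 to 2.41 in Prl2+/+ and 2.38 to 2.78 in Prl2-/-, and the genotypes overlapped. The mean of the 6 subunits was 212, 229 and 232 RPKM in the Prl2+/+ libraries, in replicate order, and 243, 220.3 and 223 RPKM in the Prl2-/- libraries. Between genotypes, the log2 fold changes of Mcm2, Mcm3 and Mcm5 were 0.014 ± 0.072, 0.016 ± 0.067 and 0.028 ± 0.061, and those of Mcm6 and Mcm7 were 0.061 ± 0.076 and 0.045 ± 0.069 (SE). The length is that of all annotated exons of a gene, so isoforms of unequal length shift such levels between genes but not between libraries. Mcm4 and Mcm7 have pseudogene copies (91.2% identity over 1861 bases and 97.7% over 2157), and how shared reads were counted was not stated. Their places in this order, and the near-equality of Mcm5 and Mcm7, are therefore uncertain.

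**Figure D2:**
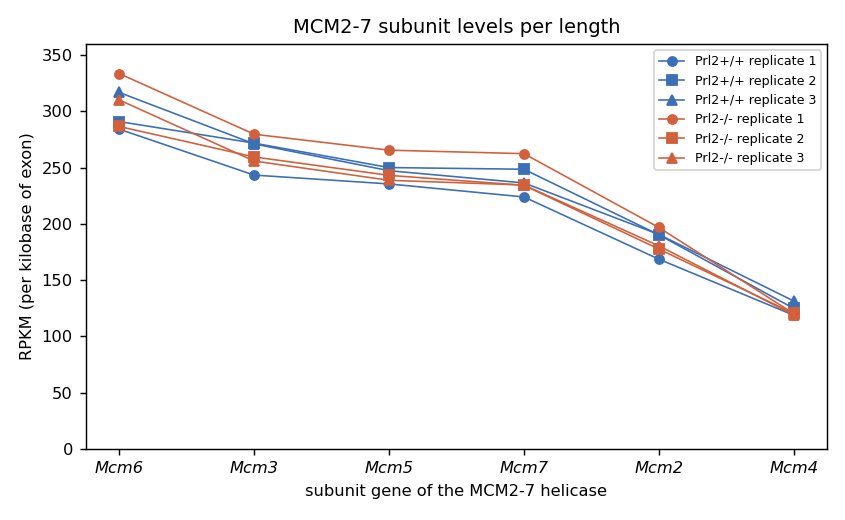
Level of the MCM2-7 subunit genes in RPKM (y axis, linear from 0) in each library (lines and symbols; blue Prl2+/+, orange Prl2-/-). The order of the subunits is the same in all 6 libraries, and the lines of the genotypes interleave.

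The helicase activators were Mcm10, Cdc45, Gins1 and Gins2. None passed, with 2 estimates above 0 and 2 below. Gins2, a subunit of the GINS ring that joins CDC45 and the helicase, had 58.2, 59.8 and 61.7 CPM in Prl2+/+ and 70.7, 60.3 and 57.0 CPM in Prl2-/-. Prl2-/- replicate 1 stood above the other 5 libraries, which lay between 57.0 and 61.7 CPM, and the log2 fold change was 0.065 ± 0.090 (SE; 95% interval -0.15 to 0.28; adjusted p from edgeR = 0.908). Gins1, another GINS subunit, had 24.9, 25.8 and 27.3 CPM in Prl2+/+ and 26.9, 25.1 and 28.8 CPM in Prl2-/-, the lowest CPM of the set. Its highest library was Prl2-/- replicate 3 and its lowest Prl2+/+ replicate 1, with a log2 fold change of 0.050 ± 0.084 (95% interval -0.15 to 0.25; adjusted p from edgeR = 0.915). Per length, Gins2 exceeded Gins1 by a ratio of 2.21 to 2.94. Cdc45, which completes the active helicase, stood at 116 to 127 CPM and a log2 fold change of -0.017 ± 0.059, and Mcm10, which acts at the last step of activation, at 108 to 127 CPM and -0.026 ± 0.081.

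Of the 11 fork genes, Pola1 and Rfc5 were the ones whose genotypes did not overlap, in opposite directions. Pola1 (chrX:93304766-93632155, minus strand on GRCm38) encodes the polymerase that, with primase, starts every new strand. It had 88.8, 93.0 and 96.0 CPM in the Prl2+/+ libraries, in replicate order, and 81.2, 85.1 and 85.4 CPM in the Prl2-/- libraries. All 3 Prl2-/- libraries were below the lowest Prl2+/+ library, by at least 3.34 CPM. The log2 fold change was -0.14 ± 0.059 (SE), with an unadjusted p of 0.0492 and a 95% interval of -0.28 to -0.00064 in the edgeR fit; adjusted over all genes p was 0.899, so it did not pass. Over the alternative fits the unadjusted p ran from 0.0418 to 0.184, and it was above 0.05 with limma-voom, the likelihood ratio test, total counts scaling, the replicate block and the hepatoblast covariate, without the 2 hepatoblast-rich libraries (described below), and when any 1 library other than Prl2+/+ replicate 1 was left out. Rfc5 (chr5:117379145-117389023, minus strand), a subunit of the clamp loader, had 169, 172 and 173 CPM in Prl2+/+ and 194, 176 and 174 CPM in Prl2-/-. Prl2-/- replicate 1 stood apart from the other 5 libraries, and the other Prl2-/- libraries lay just above the Prl2+/+ range. The log2 fold change was 0.085 ± 0.060 (95% interval -0.058 to 0.23; adjusted p from edgeR = 0.899).

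Prim1, the catalytic subunit of primase and partner of Pola1, was at 62.4 to 69.8 CPM and a log2 fold change of -0.059 ± 0.059. Pole, the polymerase of the leading strand, was at 66.5 to 79.8 CPM and -0.086 ± 0.082. Pold1, the polymerase of the lagging strand, showed the widest spread of the set, with a pooled SD of 0.178 log2 units. Its levels were 247, 300.0 and 292 CPM in Prl2+/+ and 351, 281 and 273 CPM in Prl2-/-. As for Cdt1, Prl2-/- replicate 1 was the highest and Prl2+/+ replicate 1 the lowest, and the genotypes overlapped (log2 fold change 0.11 ± 0.12, 95% interval -0.18 to 0.40, adjusted p from edgeR = 0.899). Per length Pold1 exceeded Pole 7.36 to 8.29 times in Prl2+/+ and 8.52 to 9.55 times in Prl2-/-; these ranges do not overlap, a pattern picked out after the values were seen and not tested. Per length Prim1 exceeded Pola1 2.40 to 2.84 times.

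Pcna, the clamp that holds polymerases on DNA, had 239, 240.0 and 248 CPM in Prl2+/+ and 254, 231 and 229.8 CPM in Prl2-/-, with overlapping genotypes and a log2 fold change of -0.026 ± 0.058 (SE; adjusted p from edgeR = 0.931). Its loaders Rfc2, Rfc3 and Rfc4 had estimates of 0.023 ± 0.061, -0.058 ± 0.062 and 0.036 ± 0.063. Per length the loader subunits ranked Rfc2, Rfc5, Rfc4 and Rfc3 in every library, at means of 143, 102, 69.6 and 44.6 RPKM over the 6. Fen1, the nuclease that trims Okazaki fragments, and Lig1, the ligase that joins them, were at 0.059 ± 0.076 and 0.027 ± 0.069. Fen1 ranged over 367 to 442 CPM and Lig1 over 202 to 228 CPM. Over the 11 fork genes 6 estimates were above 0 and 5 below, with a median of 0.023.

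Both ribonucleotide reductase genes varied little between libraries: Rrm1 and Rrm2 had the smallest within-genotype spread of the 36. Rrm1 (chr7:102441695-102469771, plus strand), the large subunit of ribonucleotide reductase, the enzyme that makes deoxynucleotides, had 823, 835 and 860.0 CPM in the Prl2+/+ libraries, in replicate order, and 799.7, 809 and 809 CPM in the Prl2-/- libraries. All Prl2-/- libraries lay below all Prl2+/+ libraries, but the gap between the nearest was 14.1 CPM, and the log2 fold change was -0.059 ± 0.047 (SE; 95% interval -0.17 to 0.052; adjusted p from edgeR = 0.899). Its pooled SD of 0.024 log2 units was the smallest of the 36. Rrm2 (chr12:24708254-24714146, plus strand), the small subunit that is made for S phase, was the most abundant gene of the set per length, at rank 106 of 12576 genes by mean RPKM, and had 1044, 1115 and 1116 CPM in Prl2+/+ and 1029, 1046 and 1018 CPM in Prl2-/-. Prl2-/- replicate 2 lay just above Prl2+/+ replicate 1, and the other Prl2-/- libraries were below all Prl2+/+ libraries (log2 fold change -0.083 ± 0.051, 95% interval -0.20 to 0.039, adjusted p from edgeR = 0.899). Rrm2 exceeded Rrm1 per length by a ratio of 2.31 to 2.45. Dut, the enzyme that keeps uracil out of DNA by cleaving dUTP, was highest in Prl2-/- replicate 1 at 252 CPM and between 204 and 223 CPM in the other 5 libraries, with a log2 fold change of 0.088 ± 0.081. Tk1, the thymidine kinase of S phase, was at 93.9 to 106 CPM and 0.021 ± 0.070.

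Among the genes that package new DNA, none of 4 passed. Slbp, which binds the stem-loop of histone mRNAs and is needed for histone supply in S phase, had 285, 289 and 291 CPM in Prl2+/+ and 251, 285 and 285 CPM in Prl2-/-. Prl2-/- replicate 1 was the lowest library, and the other Prl2-/- libraries lay within the Prl2+/+ range, so that the log2 fold change of -0.075 ± 0.064 (SE; 95% interval -0.23 to 0.079; adjusted p from edgeR = 0.899) rested on 1 library: without it the estimate was -0.015. Chaf1b, a subunit of the chromatin assembly factor that deposits histones behind the fork, had 99.5, 103 and 102 CPM in Prl2+/+ and 106, 91.0 and 102 CPM in Prl2-/-, lowest in Prl2-/- replicate 2 and highest in Prl2-/- replicate 1 (log2 fold change -0.026 ± 0.073, adjusted p from edgeR = 0.947). Its partner Chaf1a was at 0.022 ± 0.064, and the ratio of Chaf1a to Chaf1b per length was 1.07 to 1.15. Chaf1a ranged over 181 to 203 CPM. Uhrf1, which brings the maintenance DNA methyltransferase to newly copied DNA, had means of 483 ± 27.0 CPM in Prl2+/+ and 483 ± 42.1 CPM in Prl2-/- (mean ± SD, n = 3 per genotype), with a log2 fold change of 0.00053 ± 0.080.

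The 3 G1/S regulators did not pass either. Ccne1, cyclin E1, which drives entry into S phase, had 127, 126 and 119 CPM in Prl2+/+ and 122, 114 and 113 CPM in Prl2-/-. The lowest Prl2+/+ library lay within the Prl2-/- range, and the log2 fold change was -0.092 ± 0.060 (SE; 95% interval -0.24 to 0.051; adjusted p from edgeR = 0.899). Ccne2, cyclin E2, had 59.5, 54.2 and 62.6 CPM in Prl2+/+ and 52.1, 60.5 and 53.2 CPM in Prl2-/-, with genotype ranges that overlapped in part, a log2 fold change of -0.088 ± 0.086 and the lowest lower bound of the set (95% interval -0.29 to 0.12; adjusted p from edgeR = 0.899). E2f1, the activating E2F factor that is itself an E2F target, had 86.7, 96.5 and 99.5 CPM in Prl2+/+ and 104, 87.1 and 97.4 CPM in Prl2-/- and a log2 fold change of 0.030 ± 0.090 (adjusted p from edgeR = 0.951).

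**Figure D3:**
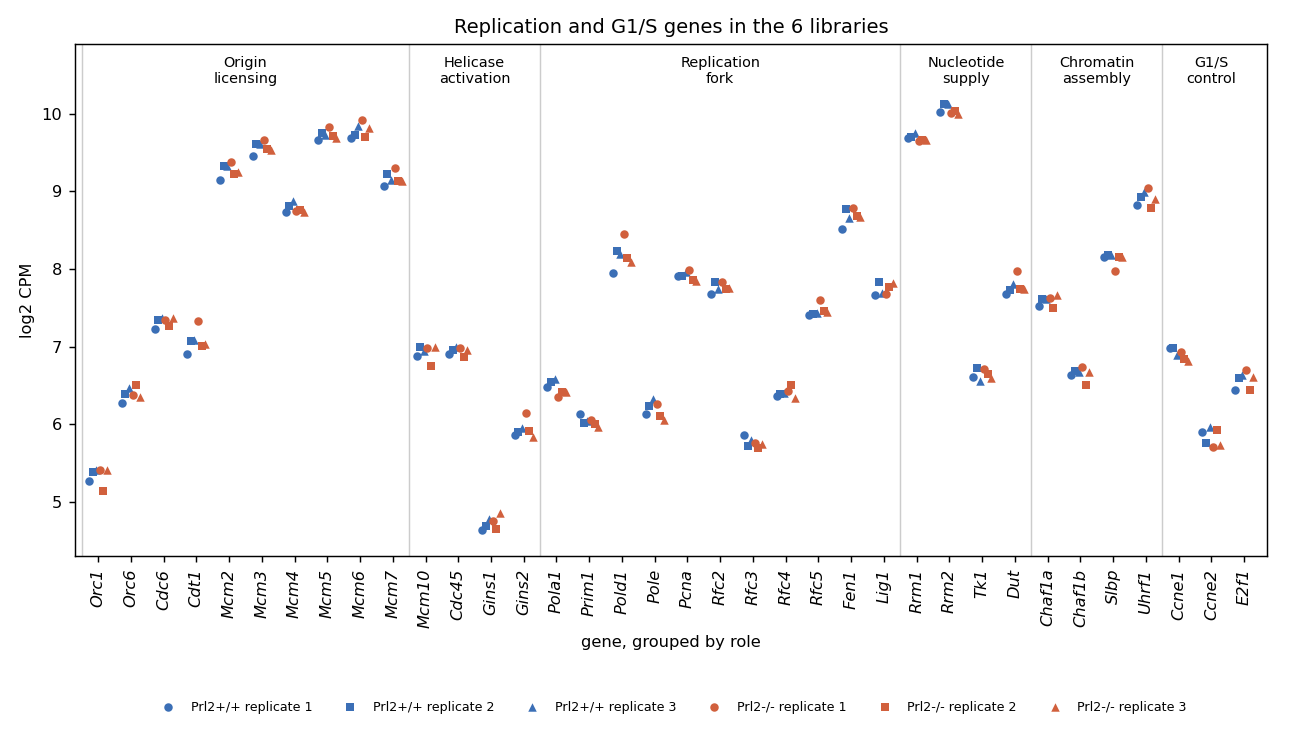
Level of each of the 36 genes (x axis, grouped by role) in log2 CPM (y axis) in the 6 libraries (blue Prl2+/+, orange Prl2-/-; symbols mark the replicate number). The symbols of the genotypes intermingle for most genes; the visible gaps are single libraries, such as Prl2-/- replicate 1 for Pold1, Cdt1 and Gins2.

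Extreme values were unevenly spread over the libraries. Prl2-/- replicate 1 was the highest library for 15 of the 36 genes, where it was the highest for 26.0% of all genes, and Prl2+/+ replicate 1 was the lowest for 17, where it was the lowest for 22.9% of all genes. The mean log2 CPM of the 36 genes was 7.45, 7.53 and 7.54 in the Prl2+/+ libraries, in replicate order, and 7.57, 7.47 and 7.49 in the Prl2-/- libraries. From high to low the libraries ran Prl2-/- replicate 1, Prl2+/+ replicates 3 and 2, Prl2-/- replicates 3 and 2 and Prl2+/+ replicate 1, so the genotypes were mixed. The mean log2 CPM of the hepatoblast markers was 6.59, 4.01 and 1.23 in the Prl2+/+ libraries, in replicate order, and -0.282, 5.53 and 2.31 in the Prl2-/- libraries. The library with the highest replication level had the lowest hepatoblast level and the library with the lowest replication level had the highest; B cell markers, at 2.69, 2.74 and 4.20 in the Prl2+/+ libraries, in replicate order, and 4.53, 1.96 and 3.46 in the Prl2-/- libraries, were highest in the same 2 libraries that led for replication, Prl2-/- replicate 1 and Prl2+/+ replicate 3. Erythroid markers were at 5.61, 6.22 and 4.69 in the Prl2+/+ libraries, in replicate order, and 4.77, 6.55 and 5.42 in the Prl2-/- libraries. Granulocyte-monocyte progenitor markers were at 8.12, 8.27 and 8.37 in the Prl2+/+ libraries, in replicate order, and 8.44, 8.23 and 8.45 in the Prl2-/- libraries. Like the replication genes, they were lowest in Prl2+/+ replicate 1. The part of these markers in the levels of the 36 genes was not tested. With the hepatoblast level as a covariate, an alternative chosen after the data were seen, 0 of 36 passed and 15 estimates were above 0, and without the 2 libraries richest in hepatoblast markers (Prl2+/+ replicate 1 and Prl2-/- replicate 2) 0 of 36 passed; in both fits all 36 intervals stayed within 1.5-fold.

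**Figure D4:**
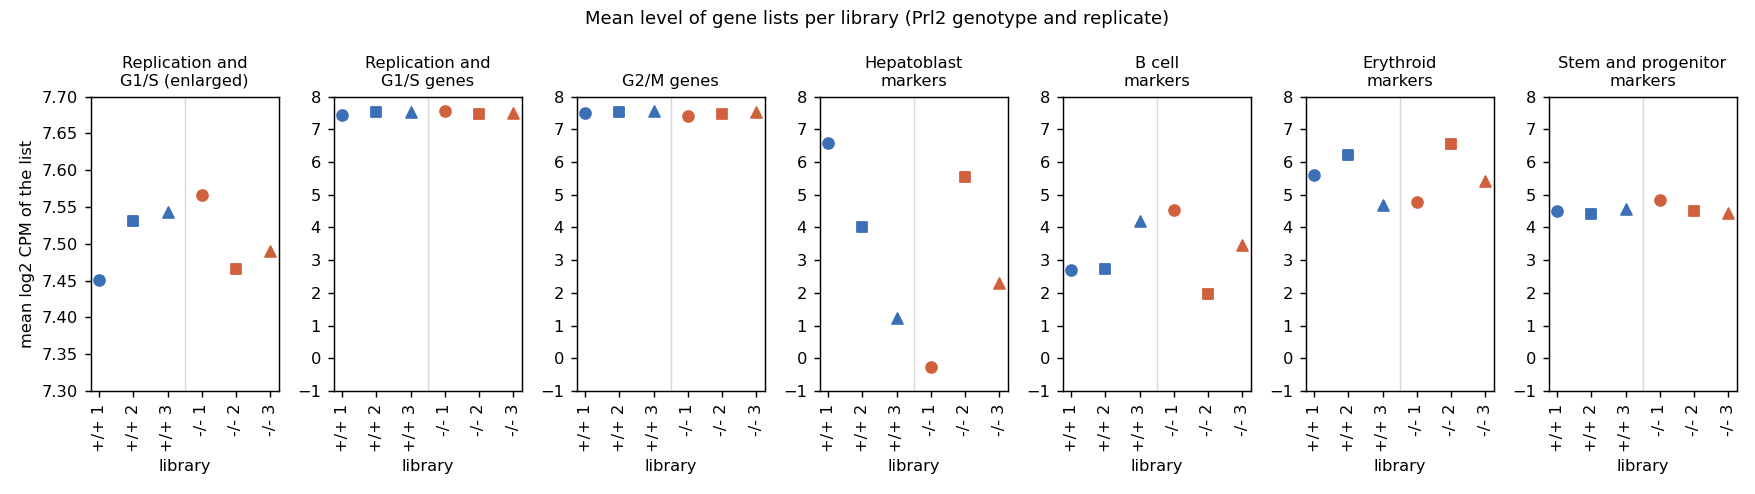
Mean log2 CPM (y axis) of the 36 replication and G1/S genes, first on an enlarged scale and then on the scale of the other panels, and of 5 other lists in each library (blue Prl2+/+, orange Prl2-/-). The replication genes stay between 7.45 and 7.57, while the hepatoblast markers run from -0.28 to 6.59.

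Further genes of the same pathway, from lists written with earlier results of these data known, gave 0 calls in either direction over all lists. Genotypes did not overlap, in either direction, for 2 of 19 licensing, 2 of 24 fork, 2 of 22 nucleotide and 2 of 16 chromatin genes. In the E2F, RB and cyclin D list this held for 3 of 23, and over all genes for 11.1%. Among 19 other licensing and initiation genes, 6 of 19 estimates were above 0 (median -0.067). The smallest p was that of Dbf4, the activator of the CDC7 kinase that fires origins, at 88.7, 79.3 and 86.5 CPM in Prl2+/+ and 67.1, 73.9 and 80.1 CPM in Prl2-/-; its genotypes overlapped, since Prl2-/- replicate 3 lay above Prl2+/+ replicate 2 (log2 fold change -0.20 ± 0.085, SE; adjusted p from edgeR = 0.899). Among 24 other fork genes, 14 of 24 estimates were above 0 (median 0.0080). Clspn, the claspin that links fork progress to the checkpoint, had 17.80, 18.17 and 17.71 CPM in Prl2+/+ and 14.46, 13.40 and 15.50 CPM in Prl2-/-. All Prl2-/- libraries were lower, and the log2 fold change of -0.31 ± 0.10 (adjusted p from edgeR = 0.899) did not pass. Among 22 other nucleotide genes, 18 of 22 estimates were above 0 (median 0.070), beside 49.8% of all genes. Their mean log2 CPM was 6.79, 6.82 and 6.88 in the Prl2+/+ libraries, in replicate order. In the Prl2-/- libraries it was 6.98, 6.82 and 6.84, so only replicate 1 lay above the Prl2+/+ range. Tyms, the thymidylate synthase, was at a log2 fold change of 0.010 ± 0.069. Samhd1, which degrades deoxynucleotides, had 140.2, 131 and 151 CPM in Prl2+/+ and 125, 89.2 and 122 CPM in Prl2-/- and a log2 fold change of -0.33 ± 0.14 (adjusted p from edgeR = 0.899), again with no overlap and no call.

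Among 16 other genes of replication-coupled chromatin, 7 of 16 estimates were above 0 (median -0.0043). Hat1, which acetylates new histone H4, had 204, 190.3 and 204 CPM in Prl2+/+ and 178, 183 and 183 CPM in Prl2-/-, without overlap, at -0.14 ± 0.053 (SE; adjusted p from edgeR = 0.899). In the E2F, RB and cyclin D list, 9 of 23 estimates were above 0 (median -0.016). Rbl1, the RB relative p107, had the smallest p of all these lists, at 76.9, 69.9 and 79.7 CPM in Prl2+/+ and 60.2, 61.1 and 66.3 CPM in Prl2-/-. The genotypes did not overlap, but the log2 fold change of -0.27 ± 0.074 (95% interval -0.45 to -0.094) had an adjusted p of 0.899 in edgeR. The D cyclins that start the sequence by binding CDK4 and CDK6 did not pass: Ccnd3 was at 0.010 ± 0.079 and Ccnd2 at 0.22 ± 0.13, with 256, 301 and 348 CPM in Prl2+/+ and 401, 331 and 323 CPM in Prl2-/- for the latter.

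The set is spread over 14 chromosomes. Only Orc1 (chr4:108579454-108614831, plus strand) and Ccne2 (chr4:11191351-11204779, plus strand) share chromosome 4 with Ptp4a2, both on its proximal side and 21.2 and 119 Mb from it. Positions are those of the count table, and all 36 overlapped the gene of the same symbol in GENCODE M21, an annotation of GRCm38. For 20 genes a matching transcript or an overlapping gene was found, and how far this affects their counts is unknown. For 9 genes (Cdc6, Mcm4, Mcm7, Pcna, Rfc5, Rrm2, Slbp, Tk1 and Uhrf1) a pseudogene transcript matched theirs at 90% identity or more over at least 200 bases, and how reads that fit both places were counted was not stated. For 13 genes, among them Fen1 with Gm10143 over 1909 bases of its exons, an annotated gene on the opposite strand shares at least 50 bases of exon, and the libraries do not mark strand. The transcript of Rfc2 shared 954 bases with one of Lat2, another gene of the count table, at 100% identity. No other annotated gene, Lat2 included, shared 50 bases or more with the exons counted for Rfc2, so this stretch lay mostly outside them. The order of the loader subunits is still uncertain, since Rfc5 is among the genes with a pseudogene match. Pola1, Rrm1, Pold1 and Cdt1 are among the 16 genes with none of these.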

How the data were processed

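Raw counts for 12579 genes in 6 libraries came from the authors' deposited table, per the file headers. Reads were aligned with STAR and counted with featureCounts, per the submitters' processing notes; versions, build and multi-mapping rules: not given in the sources used here. Per the labels' protocols, cDNA was made from 1 ng of total RNA with a template-switching kit and libraries by tagmentation, which does not mark strand. The table's Length column, per the file headers, is the exon length behind RPKM.

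Counts were fitted for all 6 libraries in edgeR 4.0.16 (R 4.3.3): filterByExpr, which left 12576 genes, TMM factors (0.991 to 1.01), quasi-likelihood test of genotype, Benjamini-Hochberg adjustment over all genes, threshold 0.05. The SE was taken as the ratio of the log2 fold change to the root of F, and 95% intervals use the t distribution. log2 CPM has a prior count of 2. Alternatives used limma 3.58.1, DESeq2 1.42.0, other scalings and filters, a replicate block and left-out libraries. No pair of libraries agreed within sampling noise (chi-square per gene at least 19.7). Genes chosen for values in every library were the 2 with the smallest p per role, those without overlap and the extremes of spread; Pcna and E2f1, given in the same way, are outside that rule, others are named as examples, and Mcm6 and the further-list examples Tyms, Ccnd3, Ccnd2 and Cdkn2d were chosen after their values were seen. Members and lists were chosen with earlier results of these data known.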

Additional observations from a re-analysis of the deposited data

How the results depend on the processing

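Under every alternative run, 0 of the 36 genes and 0 genes of the pathway lists were called, and all 36 intervals lay within 1.5-fold. The alternatives were DESeq2 size factors, total counts, no filter, a CPM of at least 1 in 3 libraries, DESeq2, limma-voom, the edgeR likelihood ratio test, the replicate block, each library left out, the 2 hepatoblast-rich libraries left out and, chosen after the data were seen, the hepatoblast covariate. The count of genes called over all genes, 5, was 36 with DESeq2, 21 with the likelihood ratio test, 1 without the 2 hepatoblast-rich libraries and 3 to 4 with 1 library left out (3 without Prl2+/+ replicate 1 or 2 or Prl2-/- replicate 1 or 3). The replicate block gave 1 called gene. Deviations of same-numbered libraries from their genotype mean had correlations of -0.638, 0.209 and 0.174 over all genes. Those of differently numbered libraries ran from -0.813 to 0.745. With 3 libraries per genotype these values cannot show whether the replicate numbers pair the libraries. The number of the 36 above 0 was 21, and 10 to 23 with 1 library left out, down to 11 without Prl2+/+ replicate 1 and 10 without Prl2-/- replicate 1; the median of the 36 stayed between -0.028 and 0.036. Genes of the 36 without overlap numbered 3 (8.33% of them, against 11.1% of all genes). They numbered 5 with DESeq2 size factors (13.9% against 11.2% of all genes). Without the 2 hepatoblast-rich libraries they numbered 10 (27.8% against 28.3% of all genes). Leaving out 1 library gave 6, 5 and 5 for Prl2+/+ replicates 1 to 3 and 7, 7 and 4 for Prl2-/- replicates 1 to 3, where 16.3% to 23.7% of all genes did not overlap; with fewer libraries non-overlap is more frequent.

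Signs of estimates near 0 turned. Uhrf1 went to -0.0034 with the stricter filter, -0.0011 with limma-voom and -0.0017 with the replicate block. Without the 2 hepatoblast-rich libraries the log2 fold changes with a turned sign were Orc1 0.011, Orc6 -0.060, Cdc6 -0.0032, Mcm2 -0.013, Mcm3 -0.019, Mcm10 0.019, Rfc4 -0.015, Lig1 -0.012 and Chaf1b 0.021, and with the hepatoblast covariate Cdc6 -0.016, Mcm2 -0.026, Mcm3 -0.015, Chaf1a -0.0082, Uhrf1 -0.054 and E2f1 -0.031. With 1 library left out, log2 fold changes that crossed 0 ran over Cdc45 -0.044 to 0.016, Cdc6 -0.031 to 0.039, Cdt1 -0.0044 to 0.17, Chaf1a -0.013 to 0.068, Chaf1b -0.073 to 0.035, E2f1 -0.031 to 0.10, Fen1 -0.0023 to 0.12, Gins1 -0.00068 to 0.10, Gins2 -0.031 to 0.13, Lig1 -0.0083 to 0.078, Mcm10 -0.067 to 0.047, Mcm2 -0.042 to 0.044, Mcm3 -0.035 to 0.041, Mcm5 -0.020 to 0.058, Mcm7 -0.012 to 0.080, Orc1 -0.074 to 0.053, Orc6 -0.014 to 0.080, Pold1 -0.013 to 0.18, Rfc2 -0.013 to 0.064, Rfc4 -0.0048 to 0.077, Tk1 -0.017 to 0.070 and Uhrf1 -0.066 to 0.059. The cause was not tested. The gene with the lowest level, Gins1, had 655 counts or more in every library.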

Other observations

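Genes that restrain or follow S phase gave no call either. Of 7 measured CDK inhibitors, 6 estimates were below 0 and the median log2 fold change was -0.13, with 0 past the edgeR threshold and 0 at an unadjusted p under 0.05. Cdkn1a, which encodes p21, had 117, 127 and 94.3 CPM in Prl2+/+ and 103, 113 and 93.6 CPM in Prl2-/-, with overlapping genotypes and a log2 fold change of -0.13 ± 0.13 (SE). Cdkn1b, which encodes p27, was near 1.60 CPM in Prl2+/+ and 1.14 CPM in Prl2-/-, and its interval was wide (-1.20 to 0.21). The interval of Cdkn2d, p19, was -0.24 to 0.16. Among 18 checkpoint genes, 8 of 18 estimates were above 0 (median -0.012). Genotypes did not overlap for 2 of the 18, beside 11.1% of all genes. Brca1, which acts in repair of stalled forks, had 60.1, 60.5 and 62.2 CPM in Prl2+/+ and 54.6, 53.5 and 55.9 CPM in Prl2-/-. It was without overlap, at -0.16 ± 0.053 (adjusted p from edgeR = 0.899).

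Of 22 G2/M genes, 16 estimates were below 0 (median -0.049). Kif11, a spindle motor, had 222, 202 and 212 CPM in Prl2+/+ and 148, 176 and 207 CPM in Prl2-/-, and Top2a, the topoisomerase that untangles copied DNA, had 432, 399 and 432 CPM in Prl2+/+ and 303, 363 and 416 CPM in Prl2-/-. In both genes Prl2-/- replicate 1 was the lowest library and Prl2-/- replicate 3 lay within the Prl2+/+ range, and neither passed (log2 fold changes -0.26 ± 0.12 and -0.22 ± 0.12, SE; adjusted p from edgeR = 0.899 for each). Prl2-/- replicate 1 was thus the highest library for the replication genes on average and the lowest for the G2/M genes, which averaged a log2 CPM of 7.51, 7.54 and 7.55 in the Prl2+/+ libraries, in replicate order, and 7.41, 7.48 and 7.54 in the Prl2-/- libraries.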
